A study of Mus musculus with 12 samples.

Results

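Fatty acid oxidation and ketogenesis were followed in mouse liver through 35 genes, of 55401 rows in the deposited gene tables. The 35 were picked by gene symbol as carriers, enzymes and electron acceptors of the pathway, and comprised 19 mitochondrial, 14 peroxisomal and 2 ketogenic genes. All 35 symbols were found in the count table and in the FPKM table, and all 35 were among the 16523 genes that passed the filter on low counts. Acad11, Crat, Eci2 and Amacr are placed in both organelles by some annotations and were also examined apart.

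The livers came from 12 C57BL/6 mice in 4 groups of 3, labelled male and as 6 to 8 weeks of age. All carried loxP-flanked Lpcat3 alleles, either as LPCAT3flox/flox (flox) or as LPCAT3flox/flox-cre (cre). Lpcat3 encodes an acyltransferase that places polyunsaturated acyl chains into phospholipids. Each genotype received a control treatment or, for 8 weeks, the MCD diet, which lacks methionine and choline and is used to bring on steatohepatitis. Livers were taken after a fast of 12 h. After 8 weeks of diet, the labelled age cannot be that of the MCD mice when their livers were taken. The promoter driving cre is not given in the sources used here, so the cell types that lost Lpcat3 are not known from them. The labels give no pairing of animals and no batch, and p-values measure the spread between these libraries.

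The libraries held 40883986 to 65516723 estimated counts, of which the 35 genes took 0.456% to 1.516%. A single ribosomal RNA row took 5.6% to 43.043%. The full-length Lpcat3 transcript stood at 9.9 to 24.1 FPKM (fragments scaled to transcript length and library size) in the 6 flox libraries and was listed at 0 in 5 cre libraries. The library labelled cre MCD 3 held 23.2 FPKM of it, against its label. All 12 libraries labelled male held Xist (116 to 685 CPM), and Ddx3y, Uty, Eif2s3y and Kdm5d were listed at 0. Flox control 3 and the library labelled cre MCD 3 stood apart: they were the highest of their group for 34 and 31 of the 35 genes, and had the lowest ribosomal shares, 7.335% and 5.6%. Flox control 1 had the highest ribosomal share and was the lowest of its group for 28 of the 35. The part of these differences in the results was not tested, and values without flox control 3 and cre MCD 3 stand beside results that moved with them. Summed hepatocyte markers (12 genes, albumin among them) reached 46700 to 109000 CPM and the 5 striated muscle markers 0 to 0.302 CPM. In whole liver, fewer cells of a type and less RNA per cell cannot be told apart.

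Mitochondrial oxidation begins with the carnitine shuttle, in which Cpt1a loads long-chain acyl groups onto carnitine, Slc25a20 carries them across the inner membrane and Cpt2 returns them to coenzyme A. Acyl-CoA dehydrogenases, a hydratase, a dehydrogenase and a thiolase then shorten the chain, with electrons passing through the flavoproteins Etfa and Etfb to Etfdh. Peroxisomes shorten very long, branched and dicarboxylic chains with enzymes of their own, and in fasting liver the acetyl-CoA made in mitochondria feeds ketone bodies. In rodents the nuclear receptor PPARalpha raises many genes of both organelles.

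On the per-length FPKM scale the order of levels, averaged over 12 libraries, was led by Scp2, the peroxisomal thiolase and lipid carrier, at 518 (range 267 to 694). Acaa1b, a peroxisomal thiolase, followed at 489 (154 to 1020) and Etfb at 464 (243 to 571). These ranges overlapped, so the order of the first 3 was not set beyond their spread. It also differed by group: Acaa1b was above Scp2 in each flox MCD library, with means of 867 ± 138 and 572 ± 38.7 FPKM, and below it in each cre control library, with means of 213 ± 59.7 and 538 ± 84.0 FPKM (SD, n = 3). The mitochondrial thiolase Acaa2 averaged 323 FPKM and the peroxisomal carnitine transferase Crot 197 FPKM. Cpt1a averaged 30.0 FPKM and Cpt1b, the muscle isoform of the same step, stood last at 1.99 FPKM. The widest relative spread among libraries belonged to Ehhadh (SD 82.1% of the mean), Cpt1b (78.7%), Acads (64.7%) and Pex11a (63.9%), and the narrowest to Etfb (18.3%) and Cpt2 (20.3%). FPKM is taken over the whole library, ribosomal row included, so the comparisons between groups rest on counts scaled by trimmed mean of M-values (TMM), given as CPM (counts scaled to library size).

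**Figure D1:**
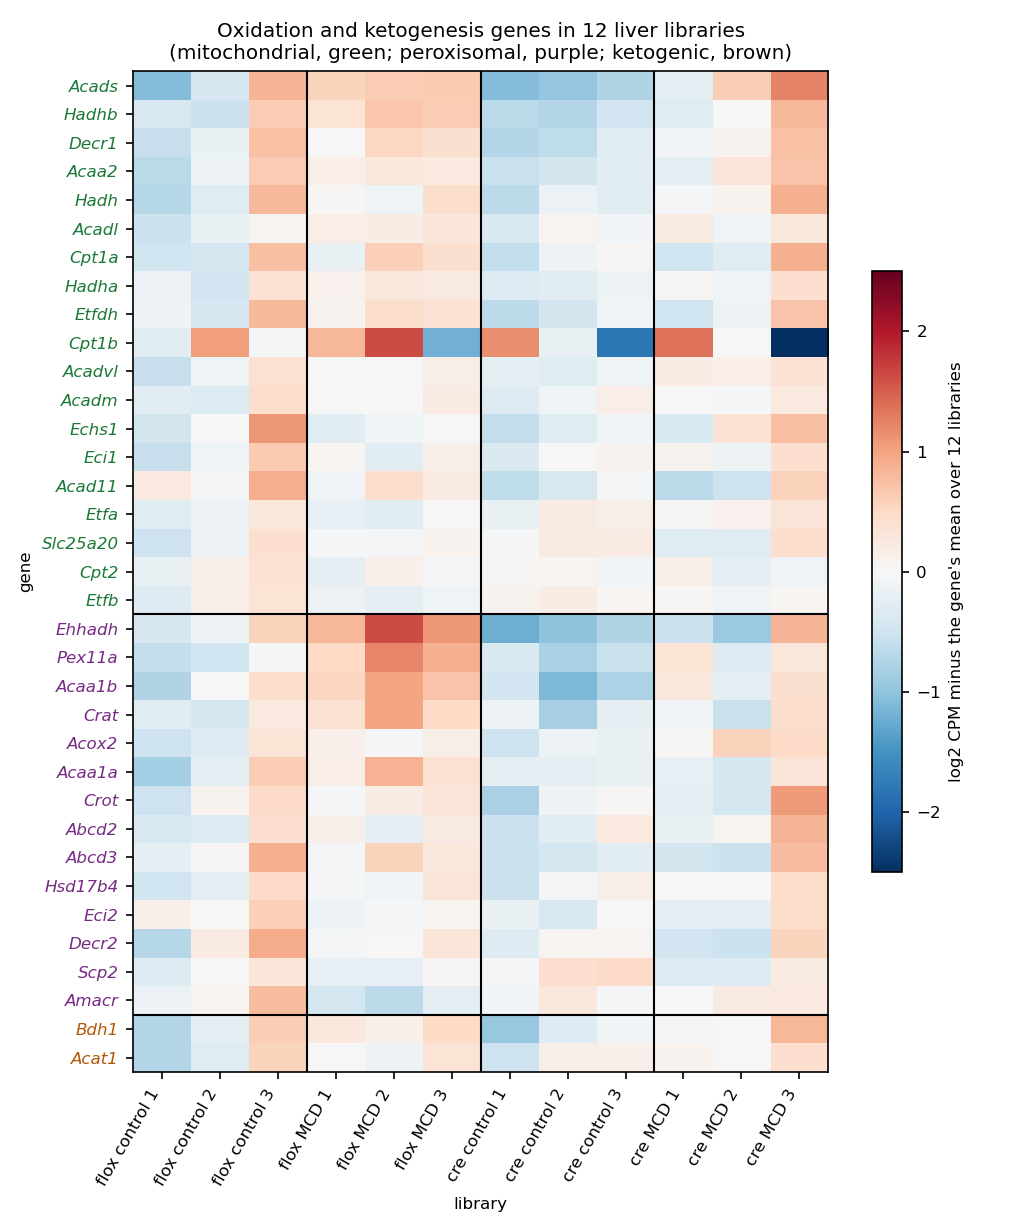
Heat map of the 35 genes (rows, grouped as mitochondrial, peroxisomal and ketogenic) in 12 libraries (columns, 4 groups of 3), coloured by log2 CPM minus the gene's mean over the 12 libraries. Flox control 3 and the library labelled cre MCD 3 were the highest of their groups for 34 and 31 genes, and Cpt1b was an exception in both.

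Averaged over both genotypes, the MCD diet raised 5 of the 35 genes: the peroxisomal Pex11a, Acaa1b and Ehhadh and the mitochondrial Acads and Hadhb. The fold changes lay between 0.72 and 1.09 on the log2 scale. That is 14.3% of the genes, beside 8.03% of the 16523 genes called higher (edgeR quasi-likelihood test, Benjamini-Hochberg adjusted p under 0.05). None was called lower, beside 6.92% of all genes. The 10 genes with an unadjusted p under 0.05 were all higher, and 5006 of all 16523 genes stood under that p. DESeq2 called 6 higher and 0 lower, beside 1778 and 1664 over all genes. The median log2 fold change was 0.29, with 27 of 35 above 0, and that of all genes tested was 0.00. By subset, the median was 0.29 in the mitochondrial genes (15 of 19 above 0), 0.31 in the peroxisomal genes (10 of 14) and 0.35 in the ketogenic pair. Without the genes placed in both organelles the mitochondrial median was 0.30 and the peroxisomal 0.33. Without flox control 3 the median of the 35 was 0.42 with 31 above 0, and without the library labelled cre MCD 3 it was 0.11 with 23 above 0. Differences between the subsets were not tested.

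Pex11a, a membrane protein that drives peroxisome division, had the smallest p. It stood at 89.8, 96.6 and 131 CPM in flox control, 192, 316 and 254 CPM in flox MCD, 105, 77.6 and 92.2 CPM in cre control and 173, 109 and 165 CPM in cre MCD. In both genotypes every MCD library was above every control library. The averaged log2 fold change was 0.98 ± 0.18 (SE), adjusted p = 0.00228, and the call held in all 12 fits that left out 1 library (adjusted p 0.00115 to 0.00874). Acaa1b, the thiolase that ends a peroxisomal cycle, stood at 501, 855 and 1144 CPM in flox control, 1233, 1677 and 1393 CPM in flox MCD, 609, 387 and 491 CPM in cre control and 1032, 715 and 1110.4 CPM in cre MCD. The MCD libraries were again above their controls in both genotypes, by 0.86 ± 0.21 (SE), adjusted p = 0.0159 on the log2 scale. This call also held in all 12 fits (adjusted p 0.00354 to 0.0447). Acaa1b and its neighbour copy Acaa1a share 35.5% of the 50-base stretches of the Acaa1b transcript, so counts of the pair could be split between them. Acaa1a, averaged 0.33 ± 0.23 (SE), adjusted p = 0.351, was not called.

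Ehhadh, the bifunctional hydratase and dehydrogenase of peroxisomes, stood at 336, 411 and 673 CPM in flox control, 795, 1399.6 and 951 CPM in flox MCD, 194, 225 and 268 CPM in cre control and 311, 236 and 805 CPM in cre MCD. The flox MCD libraries were all above flox control, while in cre mice cre MCD 2 lay among the controls. The averaged log2 fold change was 1.06 ± 0.29 (SE), adjusted p = 0.0266. The call was lost in 6 of 12 fits, without flox control 1 or 2, cre control 1 or 2, flox MCD 2 or cre MCD 3 (adjusted p 0.0105 to 0.0668 over the 12). Without the library labelled cre MCD 3 the value was 0.70, adjusted p = 0.0551.

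Acads, the short-chain acyl-CoA dehydrogenase of mitochondria, had the largest averaged change. It stood at 25.7, 41.0 and 98.4 CPM in flox control, 79.8, 85.0 and 86.0 CPM in flox MCD, 25.7, 27.8 and 32.5 CPM in cre control and 45.8, 83.9 and 128 CPM in cre MCD. Flox control 3 exceeded all 3 flox MCD libraries, whereas in cre mice the groups did not overlap. The averaged log2 fold change was 1.09 ± 0.30 (SE), adjusted p = 0.0258, and without flox control 3 it was 1.46, adjusted p = 0.0011. The call was lost in 6 of 12 fits, without flox control 2, cre control 1 or 2, flox MCD 3 or cre MCD 2 or 3 (adjusted p 0.0011 to 0.0639).

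Hadhb encodes the thiolase subunit of the trifunctional protein, whose other subunit is Hadha. Hadhb stood at 86.5, 78.1 and 176 CPM in flox control, 144, 185 and 177 CPM in flox MCD, 71.4, 68.8 and 81.2 CPM in cre control and 92.4, 113 and 200.4 CPM in cre MCD. Its flox groups overlapped through flox control 3 and its cre groups did not. The averaged log2 fold change of Hadhb was 0.72 ± 0.23 (SE), adjusted p = 0.0487, and it kept the call in 2 of 12 fits, without flox control 3 or cre MCD 1 (adjusted p 0.00383 to 0.122). Hadha stood at 121, 96.0 and 173 CPM in flox control, 143, 162 and 157 CPM in flox MCD, 108, 109 and 123 CPM in cre control and 137, 126 and 179.8 CPM in cre MCD. The cre groups of Hadha were apart, the flox groups overlapped through flox control 3, and the averaged log2 fold change was 0.31 ± 0.16 (SE), adjusted p = 0.195. The pair is transcribed from opposite strands of mouse chromosome 5, with 85 bases between the annotated genes.

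The DNA before these genes is shown because the 5 were called together. The windows are the 250 bases before the RefSeq start (build GRCm38.p6, the mm10 assembly), each on its gene's minus strand: chr7:79743132-79743381 for Pex11a, chr9:119157094-119157343 for Acaa1b, chr16:21787835-21788084 for Ehhadh and chr5:115119347-115119596 for Acads. The last line is the plus strand of chr5:30155163-30155247, the stretch between Hadha and Hadhb. Capitals mark CCAAT and GGGCGG on either strand, the CCAAT and GC boxes of many promoters. The Pex11a window includes 21 bases of the first exon of Wdr93, which runs the other way, and the other windows overlap no annotated exon.
Pex11a: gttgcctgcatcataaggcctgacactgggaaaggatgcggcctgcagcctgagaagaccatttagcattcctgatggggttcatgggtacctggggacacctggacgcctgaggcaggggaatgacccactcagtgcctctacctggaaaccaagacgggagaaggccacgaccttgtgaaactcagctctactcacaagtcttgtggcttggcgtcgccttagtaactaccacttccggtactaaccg
Acaa1b: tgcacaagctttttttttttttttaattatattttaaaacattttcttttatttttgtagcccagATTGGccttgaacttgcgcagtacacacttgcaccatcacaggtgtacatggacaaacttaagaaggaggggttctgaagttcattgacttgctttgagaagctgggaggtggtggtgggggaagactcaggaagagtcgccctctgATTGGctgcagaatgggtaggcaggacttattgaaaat
Ehhadh: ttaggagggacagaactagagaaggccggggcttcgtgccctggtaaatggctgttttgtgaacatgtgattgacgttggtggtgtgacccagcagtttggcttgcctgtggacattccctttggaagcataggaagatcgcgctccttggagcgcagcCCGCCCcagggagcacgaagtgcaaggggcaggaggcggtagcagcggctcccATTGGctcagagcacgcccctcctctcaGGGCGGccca
Acads: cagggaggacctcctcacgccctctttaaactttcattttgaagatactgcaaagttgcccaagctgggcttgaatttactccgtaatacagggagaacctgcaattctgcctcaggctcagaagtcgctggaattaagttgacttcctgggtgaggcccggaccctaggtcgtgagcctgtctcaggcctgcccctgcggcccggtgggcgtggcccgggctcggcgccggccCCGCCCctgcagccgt
Hadha-Hadhb: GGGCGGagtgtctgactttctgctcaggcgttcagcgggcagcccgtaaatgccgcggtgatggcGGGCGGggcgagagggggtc
Acaa1b and Ehhadh each hold a CCAAT box that begins 38 bases before the start. Ehhadh, Acads and the Hadha-Hadhb stretch hold GC boxes, while the Pex11a window holds neither motif. TATAAA and the nuclear receptor half-site AGGTCA were also searched on both strands, and none of the 5 stretches held either. PPARalpha binds 2 such half-sites in direct repeat with 1 base between them. None of the 5 stretches held that repeat with up to 2 mismatches over both half-sites. Of the 35 genes 27 were in the RefSeq promoter table, and 2 of those 27, Echs1 and Etfa, held such a repeat, beside 3.24% of 32851 windows of the same length. GGGCGG was found before 17 of the 27 (63.0%, beside 32.7% of all windows), CCAAT before 12 (44.4%, beside 33.8%), AGGTCA before 5 (18.5%, beside 14%) and TATAAA before 0 (beside 12.4%). A motif outside the 250 bases would not be seen, and matches are letters only, not binding.

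Of the remaining genes, 22 of 30 had averaged values above 0 and none was called. Crat, which makes acetylcarnitine, stood at 55.1, 49.3 and 79.9 CPM in flox control, 87.9, 134 and 95.1 CPM in flox MCD, 61.8, 38.0 and 57.3 CPM in cre control and 62.9, 45.4 and 90.7 CPM in cre MCD. Its flox groups did not overlap and its cre groups did; the averaged log2 fold change was 0.56 ± 0.20 (SE), adjusted p = 0.0801. Acox2, the branched-chain oxidase used for bile acid precursors, stood at 64.3, 73.3 and 117 CPM in flox control, 101, 88.8 and 102 CPM in flox MCD, 64.3, 83.7 and 80.6 CPM in cre control and 93.9, 136 and 128 CPM in cre MCD. For Acox2 the cre groups were apart, the flox groups overlapped through flox control 3, and the averaged value was 0.42 ± 0.17 (SE), adjusted p = 0.103. Acadl, the long-chain acyl-CoA dehydrogenase, stood at 135, 173 and 207 CPM in flox control, 221, 226 and 245 CPM in flox MCD, 152, 208 and 188 CPM in cre control and 229.8, 182 and 238 CPM in cre MCD. The flox MCD libraries were all above flox control, cre MCD 2 was below cre control 2 and 3, and the averaged value was 0.34 ± 0.14 (SE), adjusted p = 0.136. Decr1 reduces the dienoyl intermediates of polyunsaturated chains. It stood at 106, 139.6 and 263 CPM in flox control, 156, 224 and 209 CPM in flox MCD, 94.2, 102 and 130.3 CPM in cre control and 149.6, 167 and 262 CPM in cre MCD. Flox control 3 was its highest library, the cre groups were apart, and the averaged value was 0.52 ± 0.22 (SE), adjusted p = 0.136. Without flox control 3 these 4 genes were called, as was Hadha: Crat at 0.68, adjusted p = 0.0295, Acox2 at 0.58, adjusted p = 0.0109, Acadl at 0.42, adjusted p = 0.045, Decr1 at 0.76, adjusted p = 0.0114 and Hadha at 0.45, adjusted p = 0.0303. With cre MCD 3 left out none of the 5 was called (adjusted p 0.177 to 0.384).

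The carnitine shuttle gave no call. Cpt1a, its rate-setting step in liver, stood at 99.6, 105 and 238 CPM in flox control, 124, 214 and 187 CPM in flox MCD, 92.5, 129 and 143 CPM in cre control and 101, 114 and 262 CPM in cre MCD. Its groups overlapped in both genotypes, flox control 3 and cre MCD 3 being the highest 2 libraries, and the averaged log2 fold change was 0.32 ± 0.28 (SE), adjusted p = 0.49. The value of Cpt1a was 0.58, adjusted p = 0.112 with flox control 3 left out, and 0.04, adjusted p = 0.959 with cre MCD 3 left out. Slc25a20 (-0.06) and Cpt2 (-0.12) lay close to 0. Acadm, the medium-chain dehydrogenase, stood at 280.1, 264 and 455 CPM in flox control, 340.2, 338 and 389 CPM in flox MCD, 270.2, 311 and 376 CPM in cre control and 335, 328 and 399 CPM in cre MCD. Flox control 3 was the highest library for Acadm, and the averaged value was 0.12 ± 0.16 (SE), adjusted p = 0.658. For Acadm the corresponding values were 0.27, adjusted p = 0.154 and 0.08, adjusted p = 0.835. The electron carriers Etfa, Etfb and Etfdh had averaged values of -0.01, -0.17 and 0.31, with adjusted p 0.976, 0.438 and 0.414.

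Of the ketogenic pair, Bdh1 turns acetoacetate into 3-hydroxybutyrate. It stood at 84.5, 121 and 217 CPM in flox control, 169, 155 and 200.5 CPM in flox MCD, 73.4, 113 and 134 CPM in cre control and 139, 140.3 and 251 CPM in cre MCD. The cre groups of Bdh1 did not overlap, the flox groups overlapped through flox control 3, and the averaged log2 fold change was 0.52 ± 0.24 (SE), adjusted p = 0.163. Without flox control 3 the value for Bdh1 was 0.75, adjusted p = 0.0232, and without the library labelled cre MCD 3 it was 0.35, adjusted p = 0.367. Acat1, which condenses 2 acetyl-CoA, averaged 0.19 ± 0.21 (SE), adjusted p = 0.599. Among peroxisomal genes with negative values, Amacr, the racemase of branched chains, averaged -0.31 and Scp2 -0.28, with adjusted p 0.209 and 0.296.

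**Figure D2:**
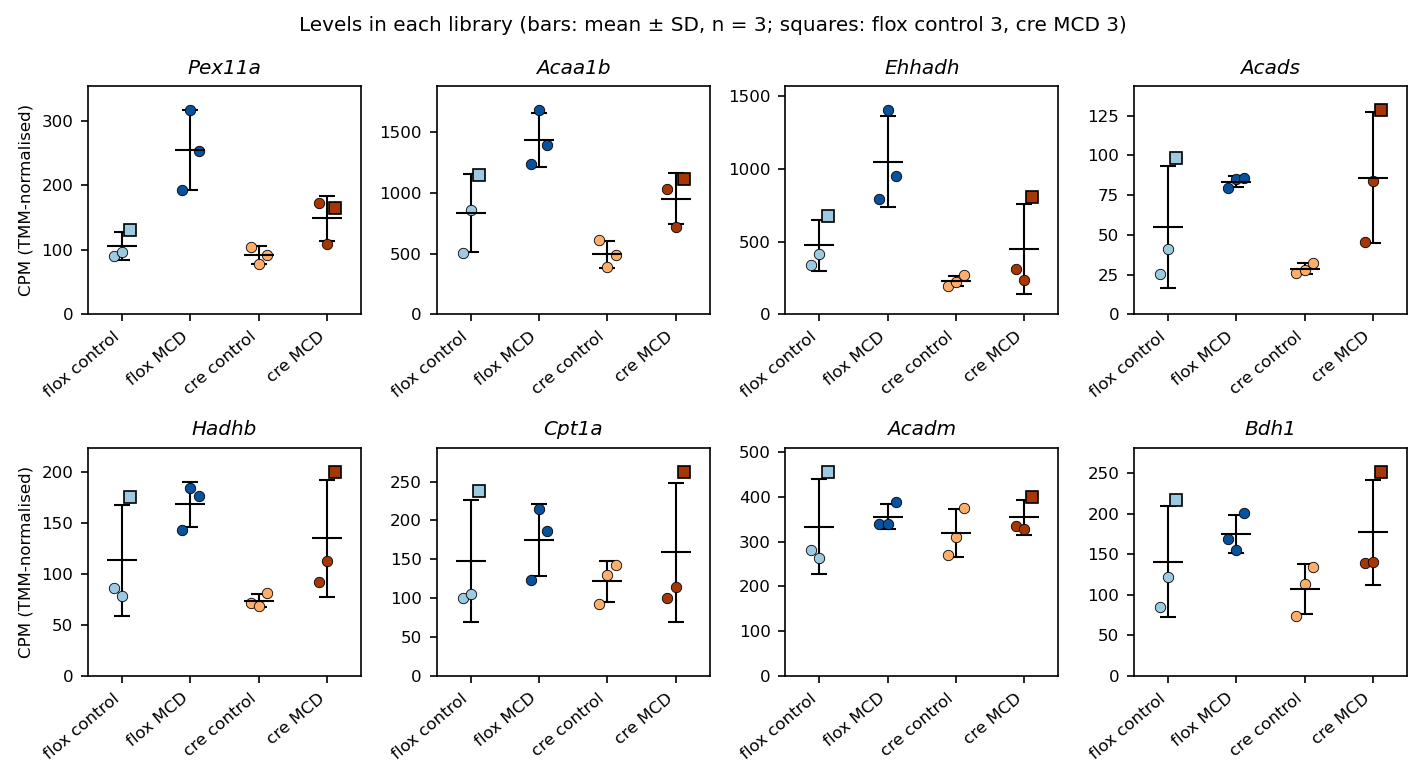
TMM-normalised CPM of 8 genes in each library (points), with mean ± SD of the 3 libraries of a group (bars); squares are flox control 3 and the library labelled cre MCD 3. The MCD libraries stand above the controls of the same genotype for Pex11a and Acaa1b, and the squares are the highest of their groups in 15 of the 16 group panels, the exception being Pex11a in cre MCD.

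The count of 5 moved with single libraries. It was 15, all higher, without flox control 3, where 2104 of 17195 genes were called higher. It was 2 without flox control 2, cre control 1, cre control 2 or cre MCD 3, in fits that called 868 to 961 genes higher. It was 3 without flox control 1, flox MCD 2, flox MCD 3 or cre MCD 2, in fits that called 838 to 1068 genes higher. With both flox control 3 and cre MCD 3 left out it was 11, beside 1693 of 17049 genes. Tested as log2(FPKM + 1) with limma, 16 genes were called higher and the median was 0.66, beside 0.29 over all genes, a distance of 0.37. That fit called 4343 of 12350 genes higher and 414 lower, beside 1327 and 1143 of 16523 on the counts.

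Within flox mice 1 of the 35 genes, Pex11a, was called higher, beside 2.64% of all genes, and 0 were called lower, beside 2.63%. Pex11a rose by 1.26 ± 0.25 (SE), adjusted p = 0.00931 on the log2 scale, from 106 ± 22.0 to 254 ± 61.9 CPM (SD, n = 3), and the call held in all 12 fits with 1 library left out. The next 4 by p were not called. They were Amacr (-0.72 ± 0.23 (SE), adjusted p = 0.0916), Ehhadh (1.15 ± 0.41 (SE), adjusted p = 0.134), Crat (0.78 ± 0.29 (SE), adjusted p = 0.146) and Acaa1b (0.78 ± 0.30 (SE), adjusted p = 0.162). DESeq2 called Pex11a and Ehhadh higher and Amacr lower, beside 820 genes higher and 833 lower over all genes. At an unadjusted p under 0.05 stood 5 genes by edgeR, beside 3110 of all 16523. The groups did not overlap, with MCD above, for 5 genes (14.3%, beside 13.8% of all genes): Acaa1b, Acadl, Crat, Ehhadh and Pex11a. MCD was wholly below control for 1 gene, Amacr (2.86%, beside 10.3%). The median was 0.11, with 24 of 35 above 0; the mitochondrial and peroxisomal medians were 0.10 and 0.10, and that of all genes 0.01. Without flox control 3 the median was 0.45 with 31 of 35 above 0. That fit called 4 of the 35, beside 577 genes higher and 478 lower over all genes. Without flox control 1 the median was -0.07 with 13 above 0. That fit called 2, beside 296 genes higher and 399 lower. Without the library labelled cre MCD 3, which enters only through the shared spread, 2 were called, Pex11a and Ehhadh (1.15, adjusted p = 0.0376). Over all genes that fit called 436 higher and 468 lower. Amacr was -0.40, adjusted p = 0.239 with flox control 3 left out.

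Within cre mice 1 gene, Acads, was called higher, beside 3.73% of all genes, and 0 were called lower, beside 3.04%. Acads rose by 1.58 ± 0.43 (SE), adjusted p = 0.042 on the log2 scale, from 28.7 ± 3.49 to 86.0 ± 41.3 CPM (SD, n = 3). The call on Acads held in 4 of 12 fits, when flox control 1, 2 or 3 or cre MCD 1 was left out, and without the library labelled cre MCD 3 it was 1.18, adjusted p = 0.16. Acaa1b (0.94 ± 0.30 (SE), adjusted p = 0.0741), Pex11a (0.70 ± 0.25 (SE), adjusted p = 0.102), Acox2 (0.65 ± 0.24 (SE), adjusted p = 0.112) and Hadhb (0.87 ± 0.32 (SE), adjusted p = 0.117) followed by p and were not called. MCD was wholly above control for 11 genes (31.4%, beside 16.4% of all genes), 7 of them mitochondrial: Acaa2, Acads, Acadvl, Decr1, Hadh, Hadha and Hadhb. The others were Acaa1b, Acox2 and Pex11a of peroxisomes and the ketogenic Bdh1. None was wholly below, beside 14.7%. The median was 0.38, with 30 of 35 above 0, and -0.01 over all genes; the mitochondrial median was 0.38 and the peroxisomal 0.40. Without the library labelled cre MCD 3 the median was 0.10 with 24 of 35 above 0, and the mitochondrial and peroxisomal medians were 0.17 and 0.05. Without it the value of Hadhb was 0.48, adjusted p = 0.439, and without flox control 3, which enters only through the shared spread, Acaa1b, Acox2, Hadhb and Decr1 were called as well as Acads. DESeq2 called 5 of the 35, beside 1218 genes higher and 1011 lower over all genes. The count was 0 without any 1 of the cre control or flox MCD libraries or cre MCD 2 or 3. Those fits called 177 to 486 genes higher over all genes. The count was 2 without flox control 1, 5 without flox control 3 and 3 without cre MCD 1, beside 914, 1084 and 1046 genes called higher.

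**Figure D3:**
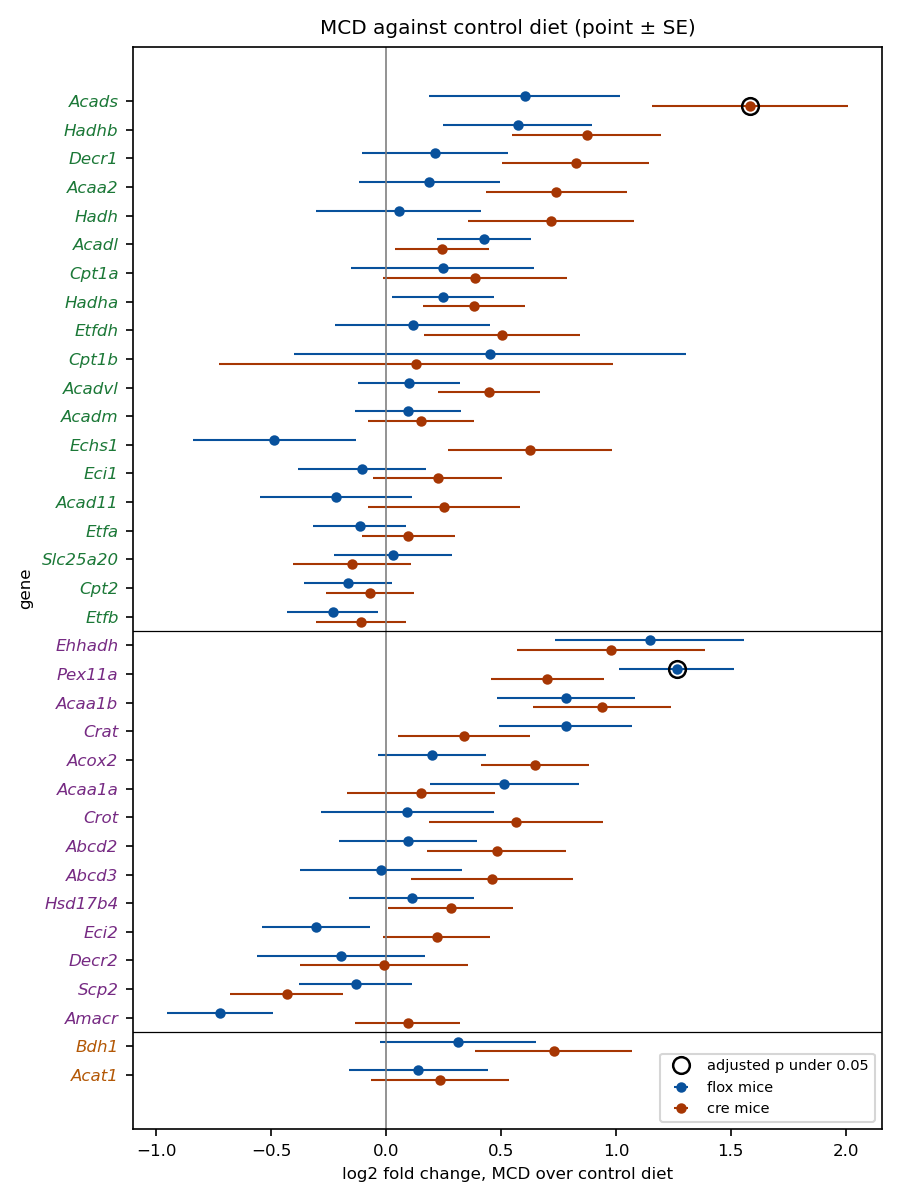
Log2 fold change of MCD over control diet (points, with SE as bars) for the 35 genes in flox (blue) and cre (brown) mice, with rings at adjusted p under 0.05. The rings are Pex11a in flox mice at 1.26 and Acads in cre mice at 1.58, and Echs1 and Amacr are among the genes on opposite sides of 0 in the 2 genotypes.

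Whether the diet effect differed between genotypes was tested directly, and 0 of the 35 genes were called, beside 0.00605% of all genes (1 gene). At an unadjusted p under 0.05 stood 2 genes, beside 1483 of all 16523. DESeq2 called 0, beside 60 genes higher and 39 lower over all genes, and limma voom called 0, also over all genes. Amacr (0.82 ± 0.32 (SE), adjusted p = 0.513) and Echs1, the short-chain hydratase (1.11 ± 0.50 (SE), adjusted p = 0.551), had the smallest p, positive values meaning a higher change in cre mice. Acads (0.98 ± 0.59 (SE), adjusted p = 0.639), Pex11a (-0.56 ± 0.35 (SE), adjusted p = 0.645) and Eci2 (0.53 ± 0.33 (SE), adjusted p = 0.649) came next. The median was 0.21, with 27 of 35 above 0; without flox control 3 it was -0.07 with 14 above 0, and without the library labelled cre MCD 3 it was -0.0038 with 17 above 0. With flox control 3 left out, Amacr was 0.49, adjusted p = 0.686 and Echs1 0.53, adjusted p = 0.819. For Acads the value was 0.26 without flox control 3 and changed sign, to -0.15, without flox control 3 and cre MCD 3.

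On the MCD diet 0 of the 35 genes differed between cre and flox, beside 0.0121% of all genes (2 genes). At an unadjusted p under 0.05 stood 4 genes by edgeR, beside 1376 of all 16523. DESeq2 and limma voom called 0. Over all genes DESeq2 called 79 higher and 110 lower, and limma voom 2 and 10. Pex11a had the smallest p, at 149 ± 35.0 CPM in cre and 254 ± 61.9 CPM in flox (SD, n = 3), a log2 fold change of -0.77 ± 0.25 (SE), adjusted p = 0.376. Ehhadh stood at 451 ± 309 and 1048 ± 314 CPM, -1.22 ± 0.41 (SE), adjusted p = 0.413. Amacr (0.59 ± 0.23 (SE), adjusted p = 0.502), Crat (-0.67 ± 0.29 (SE), adjusted p = 0.553) and Acaa1b (-0.59 ± 0.30 (SE), adjusted p = 0.649) followed. Cre was wholly above flox for 3 genes, Acadvl, Amacr and Etfa (8.57%, beside 8.13% of all genes), and wholly below for 2, Acaa1b and Pex11a (5.71%, beside 9.42%). The median was -0.01, and -0.01 over all genes; without the library labelled cre MCD 3 it was -0.22 with 9 of 35 above 0.

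The size of the Ehhadh difference on MCD moved with the library labelled cre MCD 3, whose Lpcat3 transcripts went against its label. Ehhadh reached 805 CPM there, beside 311 and 236 CPM in the other 2 cre MCD libraries and 795 to 1399.6 CPM in flox MCD. Without that library the log2 fold change of Ehhadh on MCD was -1.94, adjusted p = 0.0784, still not called. Without it and flox control 3 the value was -1.94, adjusted p = 0.031, in a fit that called 16 genes higher and 30 lower. Flox control 3 is in neither group compared and enters only through the shared fit. Pex11a and Acaa1b moved less. Pex11a was -0.85, adjusted p = 0.351 and Acaa1b -0.72, adjusted p = 0.571 without cre MCD 3.

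On the control diet 0 genes differed between cre and flox, beside 0.0424% of all genes (7 genes). At an unadjusted p under 0.05 stood 4 genes, beside 1190 of all 16523. DESeq2 and limma voom called 0. Over all genes DESeq2 called 29 higher and 30 lower, and limma voom 2 and 3. Ehhadh had the smallest p, at 229 ± 37.4 CPM in cre and 473 ± 177 CPM in flox (SD, n = 3), -1.05 ± 0.41 (SE), adjusted p = 0.657. Acaa1b (-0.75 ± 0.30 (SE), adjusted p = 0.663), Acad11 (-0.76 ± 0.33 (SE), adjusted p = 0.688), Acads (-0.94 ± 0.42 (SE), adjusted p = 0.688) and Abcd3 (-0.71 ± 0.35 (SE), adjusted p = 0.708) came next. Acad11 oxidises long and very long chains, and Abcd3 imports branched and bile acid intermediates into peroxisomes. Cre was wholly below flox for 4 genes, Abcd3, Acad11, Eci2 and Ehhadh (11.4%, beside 5.01% of all genes), and wholly above for 0 (beside 5.76%). The median was -0.22, with 6 of 35 above 0, and without flox control 3 it was 0.06 with 21 above 0. For Ehhadh the value without flox control 3 was -0.70, adjusted p = 0.814. Without that library Acaa1b was -0.45, adjusted p = 0.83, Acad11 -0.44, adjusted p = 0.874, Acads -0.21, adjusted p = 0.969 and Abcd3 -0.31, adjusted p = 0.94.

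A comparison averaged over both diets was added after the data had been seen, because Ehhadh lay lower in cre on each diet. The adjusted p-values given for Ehhadh in this comparison do not allow for that choice. It was made from the same values. The added comparison called 0 of the 35 genes, beside 0.0242% of all genes (4 genes). At an unadjusted p under 0.05 it had 5 of the 35, beside 1159 of all 16523. Ehhadh was -1.13 ± 0.29 (SE), adjusted p = 0.393, and DESeq2 called it (-1.14, adjusted p = 0.0167), among 28 genes called higher and 79 lower. Without the library labelled cre MCD 3 Ehhadh was called by edgeR (-1.49, adjusted p = 0.0227), among 6 genes called higher and 10 lower. Without cre MCD 3 and flox control 3 it was -1.32, adjusted p = 0.0253. Acaa1b (-0.67 ± 0.21 (SE), adjusted p = 0.474), Pex11a (-0.49 ± 0.17 (SE), adjusted p = 0.554), Acad11 (-0.53 ± 0.23 (SE), adjusted p = 0.688) and Crat (-0.45 ± 0.20 (SE), adjusted p = 0.698) followed. Without cre MCD 3 Acad11 was -0.78, adjusted p = 0.201. Neither Acaa1b nor Pex11a was called in any of the 12 fits with 1 library left out.

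**Figure D4:**
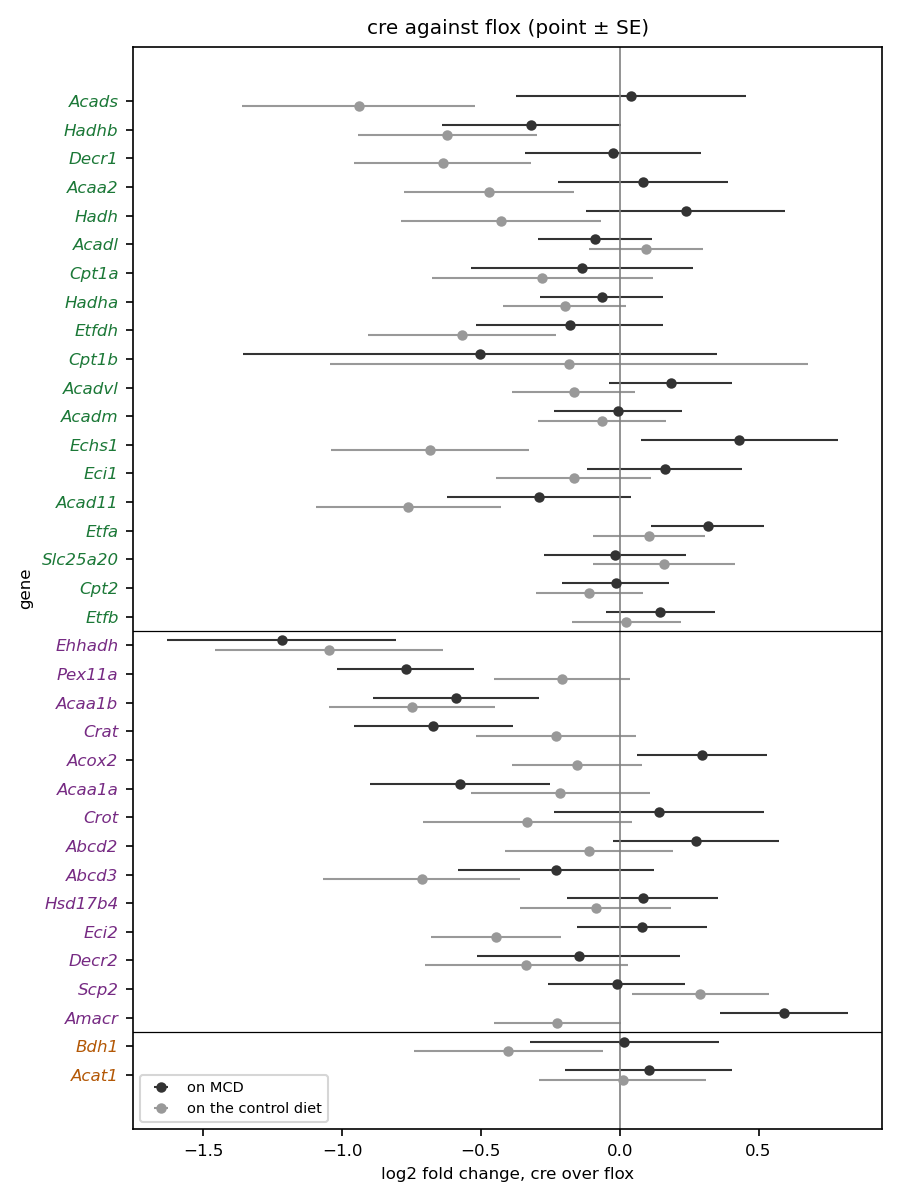
Log2 fold change of cre over flox (points, with SE as bars) for the 35 genes on the MCD diet (dark) and on the control diet (grey). No gene passed an adjusted p of 0.05, and Ehhadh lies farthest to the left on both diets, at -1.22 and -1.05.

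Ratios within a library do not depend on how libraries are scaled. The FPKM ratio of Ehhadh to Hadha, the enzymes that carry the same hydratase and dehydrogenase steps in peroxisomes and mitochondria, was 2.97, 5.04 and 5.0 in flox control and 7.08, 10.6 and 7.71 in flox MCD. It was 2.11, 2.63 and 2.69 in cre control and 2.87, 2.40 and 5.84 in cre MCD. All flox MCD libraries were above all other libraries, and the highest cre library was the one labelled cre MCD 3. The group means were 4.34 ± 1.18, 8.46 ± 1.88, 2.48 ± 0.319 and 3.70 ± 1.87 in the same order (SD, n = 3). With 3 against 3 libraries no exact permutation p can fall below 0.1, so the ratios are described and not tested.

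The ratio of Acads to Acadm, the short-chain to the medium-chain dehydrogenase, was 0.0954, 0.165 and 0.231 in flox control and 0.246, 0.269 and 0.235 in flox MCD. It was 0.1, 0.0960 and 0.0924 in cre control and 0.143, 0.274 and 0.344 in cre MCD. In both genotypes each MCD library was above each control library, including flox control 3. The summed FPKM of the 14 peroxisomal genes over that of the 19 mitochondrial genes was 0.898, 0.942 and 0.872 in flox control and 1.03, 1.27 and 1.08 in flox MCD. It was 0.839, 0.842 and 0.907 in cre control and 0.860, 0.703 and 0.939 in cre MCD. The flox MCD libraries were above the rest, and the cre groups overlapped. Without Scp2, the most abundant of the 14, the ratio was 0.609, 0.658 and 0.637 in flox control and 0.797, 1.05 and 0.838 in flox MCD, and 0.527, 0.465 and 0.521 in cre control and 0.642, 0.496 and 0.706 in cre MCD. Leaving Scp2 out turned the order of the cre means, from 0.863 ± 0.0384 in control and 0.834 ± 0.120 in MCD to 0.504 ± 0.0342 and 0.615 ± 0.108 (SD, n = 3), and the cre groups overlapped either way.

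**Figure D5:**
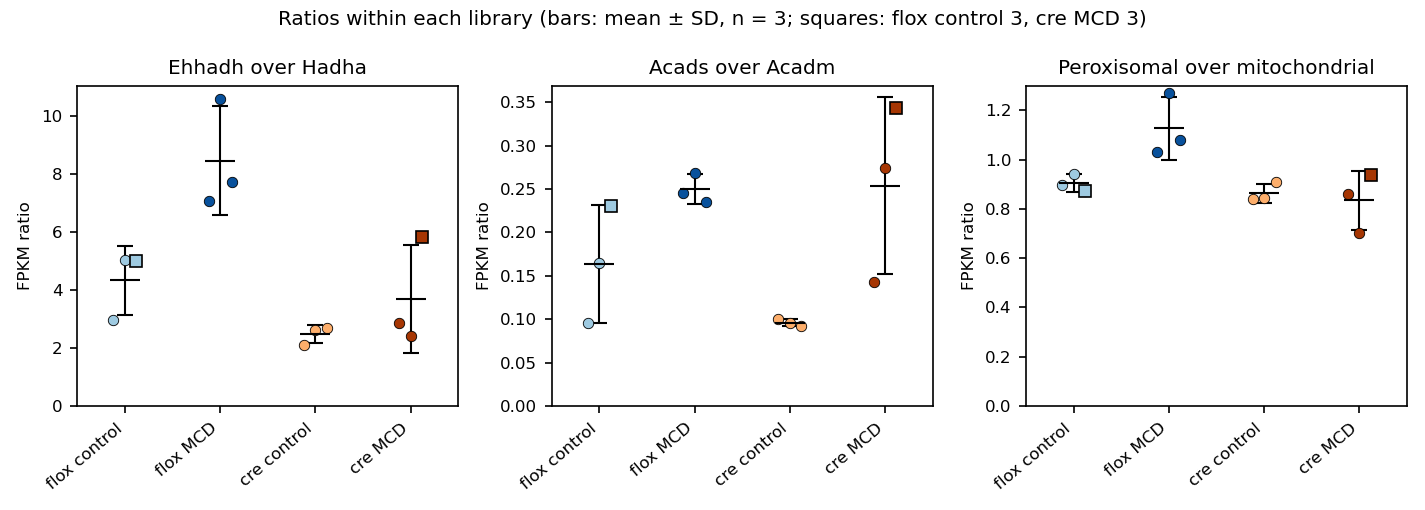
FPKM ratios within each library (points) with mean ± SD of 3 libraries (bars) for Ehhadh over Hadha, Acads over Acadm, and the summed peroxisomal over the summed mitochondrial genes; squares are flox control 3 and the library labelled cre MCD 3. Flox MCD lies at 7.08 to 10.6 for Ehhadh over Hadha, above every other library.

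Other genes of the pathway and of steps linked to it were counted for the averaged diet comparison. Their lists were chosen with earlier results of these data known. In that comparison 8.03% of all genes were called higher and 6.92% lower. Of 29 further genes of oxidation and linked steps 1 rose and 4 fell, with a median of -0.18. The 29 also held genes that are not fatty acid oxidation enzymes, among them Acaca, Acacb, Mcat, Cat, Pcca and Pccb. Acad12 rose, by 1.04 (adjusted p = 0.00158), while Ivd -0.68 (adjusted p = 0.0205), Acad8 -0.57 (adjusted p = 0.0267) and Acadsb -0.62 (adjusted p = 0.0285), which oxidise branched-chain amino acid intermediates, fell, as did the peroxisomal cofactor carrier Slc25a17 -0.41 (adjusted p = 0.0361). Of 18 genes of peroxisome assembly and membrane, which make the organelle that Pex11a divides, none was called by edgeR, and their median was 0.09. Of 7 further ketone body genes 1 fell, the cytosolic Bdh2 -0.71 (adjusted p = 0.017).

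Of 17 regulators of oxidation 1 rose and 4 fell, beside the same 8.03% and 6.92% of all genes. Pparg, a lipid storage receptor, rose by 1.32 (adjusted p = 0.000197), and Sirt3 -0.63 (adjusted p = 0.00564), Nr1h4 -0.61 (adjusted p = 0.0151), Sirt1 -0.52 (adjusted p = 0.0276) and Lpin1 -1.06 (adjusted p = 0.0289) fell. Ppara itself, singled out after its values were seen, was -0.32 (adjusted p = 0.199). Of 20 further target genes of PPARalpha 9 rose and 1 fell, with a median of 0.38. The 5 with the smallest p were Cyp4a31 3.38 (adjusted p = 3.14e-08), the thioesterase Acot2 1.69 (adjusted p = 2.86e-05), the fatty acid importer Cd36 1.43 (adjusted p = 0.000112), the hormone Fgf21 2.34 (adjusted p = 0.000765) and the kinase Pdk4 1.67 (adjusted p = 0.000912). Cyp4a10 -1.01 (adjusted p = 0.00203) fell (the 1 lower gene of the list, named after its values were seen), and because it is a close copy of Cyp4a31, reads could be split between them. Pdk4 was also lower in cre than in flox on the control diet, by -2.44 (adjusted p = 0.04).

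Markers of other cells moved with the diet beside these genes. Averaged over both genotypes, 8.03% of all genes were called higher and 6.92% lower. Of 10 macrophage markers 6 rose and 1 fell. Their summed level was 98 to 172 CPM in flox control, 213 to 394 in flox MCD, 112 to 133 in cre control and 172 to 229 in cre MCD. In cre MCD 1 of the 10, Cd63, gave 83.9, 87.9 and 70.8 CPM of that sum, beside 6.52, 3.82 and 4.85 CPM in cre control. It gave 63.5, 44.7 and 66.0 CPM in flox MCD. Of 8 stellate cell markers 5 rose, with sums of 166 to 214 and 349 to 439 CPM in flox control and MCD, and 168 to 195 and 232 to 350 CPM in cre. Of 12 hepatocyte markers 4 fell and 0 rose, and their sum was 58100 to 109000 and 46700 to 67900 CPM in flox control and MCD, and 68600 to 90700 and 87900 to 99800 CPM in cre. Of 5 cholangiocyte markers 2 rose, with sums of 41.9 to 60.5 and 66.0 to 136 CPM in flox control and MCD, and 28.0 to 70.1 and 78.3 to 129 CPM in cre. Spp1, 1 of the 5, made up most of these sums. It stood at 34.8 to 51.1 and 43.3 to 121 CPM in flox, and 22.2 to 60.8 and 68.15 to 117 CPM in cre. Its flox groups overlapped and its cre groups did not. Of 4 neutrophil markers 3 were tested and 2 rose, with sums of 1.26 to 2.84 and 6.53 to 7.42 CPM in flox control and MCD, and 1.04 to 3.66 and 3.34 to 5.94 CPM in cre. Of 6 endothelial markers 1 rose, and of 6 lymphocyte markers none was called. Flox control 3 had the highest hepatocyte sum of all libraries, and the highest albumin level. The part of cell makeup in the 5 calls was not tested.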

How the data were processed

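Poly(A) RNA of 12 livers was sequenced with a SMARTER kit, per the labels. The submitters' processing notes name cutadapt, FastQC, HISAT2, StringTie, edgeR and mm10, with no versions given. The authors deposited estimated counts per gene, which were whole numbers and were used as such. The deposited expression values were scaled by the authors for transcript length and library size, and were read as FPKM. Transcript value times length, summed per gene, over the count was 1 constant per library within 5% for 100% of genes with 1000 counts or more. Another length-scaled unit that differs from FPKM by 1 constant per library would give the same relation. The check therefore shows scaling by length and does not settle the unit. Strand use in counting is not given in the sources used here. Sequences are RefSeq's (GRCm38.p6) and exons GENCODE vM21's.

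Counts were tested in R 4.3.3 with edgeR 4.0.16 (filterByExpr by group, TMM, glmQLFit, glmQLFTest, 2-sided) in 1 fit of all 12 libraries. Calls are Benjamini-Hochberg adjusted p under 0.05 over 16523 genes. Each SE was derived as the absolute log2 fold change over the square root of F. Ranges are of libraries; the code was tested on simulated data. The members and lists were chosen with earlier results of these data known. Genes named with tests were those called in a comparison and, below 5, the next by p. Values in every library are given for the 10 with the smallest p in the averaged diet comparison and for Cpt1a, Acadm, Hadha, Ehhadh, Acox2 and Bdh1. From the other pathway lists, called genes were named, the 5 with the smallest p where more were called, and Cyp4a10 besides. Cell markers are given as counts and sums, with a median for hepatocytes. Albumin, Cd63 and Spp1 are given apart and were named after their values were seen. Alternatives were DESeq2 1.42.0 and its size factors, limma 3.58.1 (voom, and log2(FPKM + 1) or log2(FPKM + 0.1) with FPKM of at least 0.5 in 3 libraries or no filter), other filters, a scaling without mitochondrial and ribosomal rows, a block for the replicate number, a fit of the compared groups alone, and left-out libraries.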

Additional observations from a re-analysis of the deposited data

How the results depend on the processing

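Among the genes named per comparison, 1 value changed sign under an alternative: the difference of the diet effects for Acads was -0.15 with flox control 3 and cre MCD 3 both left out. In flox mice the number of the 35 genes called was 3 with DESeq2, 5 with log2(FPKM + 1), 5 with log2(FPKM + 0.1), 7 with both libraries out, and 1 to 4 with 1 library left out. In cre mice it was 5 with DESeq2, 0 with log2(FPKM + 0.1), 0 with log2(FPKM + 1) and no filter, and 0 to 5 with 1 library left out. Averaged over both genotypes it was 16 with log2(FPKM + 1), 16 with log2(FPKM + 0.1), 9 with log2(FPKM + 1) and no filter, 11 with both libraries out, 2 (Acads and Ehhadh) with a log2 fold change of at least 1 required as well, and 2 to 15 with 1 library left out. Between genotypes it was 1, Ehhadh lower, on MCD with both libraries out. Averaged over the diets it was 1, Ehhadh each time, with DESeq2, with both libraries out, and 0 to 1 with 1 library left out. Of the recomputed counts 130 lay within 1.5 times the reported one and 42 did not. A reported count of 0 that stayed 0 was taken as within, which held for most counts between genotypes. Most of the 42 came from the diet comparisons in flox mice, in cre mice and averaged over both genotypes. The FPKM fits change values, filter and test together. Calls over all genes moved as well. In flox mice 820 genes were called higher and 833 lower with DESeq2, beside 437 and 434 in the reported fit. They were 2279 and 167 with log2(FPKM + 1), and 744 and 657 with both libraries out. In cre mice DESeq2 called 1218 higher and 1011 lower, beside 616 and 502. The cause of these changes was not tested.

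With the replicate number as a block the counts were 2 in flox, 4 in cre and 9 averaged over both genotypes, and the block changed no other count of members. Over all genes the block fit called 546, 1043 and 1696 genes higher in these comparisons, beside 437, 616 and 1327 without it. Deviations of same-numbered libraries correlated at -0.0285 to 0.345 (median 0.0305), and 2 of 18 pairs exceeded 0.1. Those of other-numbered libraries correlated at -0.345 to 0.0846 (median -0.0209), and 0 of 36 pairs exceeded 0.1. Deviations from a group mean cancel out within the group, so the same-numbered and other-numbered correlations are not independent of each other. Whether the numbers mark a pairing was not tested.

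With 3 libraries a group, the spread between libraries limits these tests; every one of the 35 genes had counts in each library.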

Other observations

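Cpt1b did not follow the other genes across libraries. It stood at 4.12, 10.4 and 4.87 CPM in flox control, 8.89, 15.5 and 2.18 CPM in flox MCD, 11.2, 4.39 and 1.44 CPM in cre control and 12.9, 5.04 and 0.869 CPM in cre MCD, so it was lowest of its group in the library labelled cre MCD 3, which was highest for 31 of the 35, and none of its diet or genotype differences was called. Between its annotated start and the annotated end of Chkb, on the same strand, lie 496 bases, and reads from the pair were not separated here.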
